A study of Mus musculus with 2 samples.

Results

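Regulators of G protein signalling (RGS proteins) were examined in mouse peritoneal macrophages on a pair of Affymetrix expression arrays. The 9 genes were Rgs1, Rgs2, Rgs3, Rgs10, Rgs12, Rgs14, Rgs16, Rgs18 and Rgs19, out of 18193 genes with a probe set named for 1 gene. They were selected on their family membership and on the deposited log2 signals and differences of these same arrays, so those values describe the genes and were given no test. All 21 probe sets annotated to 1 of these symbols were taken, whatever their signal. Another 10 genes named Rgs plus a number were on the arrays and are described beside them.

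Per the labels, both arrays held total RNA of peritoneal macrophages from male C57BL/6 mice, 48 h after transfection. Cells of the siControl array had received a control siRNA, and those of the siHDAC9 array an siRNA that targets the class IIa histone deacetylase HDAC9. Transfection itself was common to both groups. There was 1 array per group; the labels give neither the number of mice behind each RNA nor whether animals were pooled, and no spread between cultures is known. The comparison asks which RGS transcripts differ when HDAC9 is targeted.

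RGS proteins shorten the active life of heterotrimeric G proteins. Their shared RGS domain speeds the hydrolysis of GTP by the G alpha subunit, which ends signalling from receptors for chemokines, lipid mediators, nucleotides and complement fragments. The R4 subfamily (Rgs1, Rgs2, Rgs3, Rgs16 and Rgs18 here) consists mostly of small proteins with little beyond the RGS domain. The R12 subfamily (Rgs10, Rgs12, Rgs14) acts mainly on G alpha i, and Rgs12 and Rgs14 also carry Ras-binding and GoLoco domains. Rgs19, also called GAIP, belongs to the RZ subfamily. In leukocytes the family is best known for limiting the response to chemoattractants.

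Signals are the authors' log2 values. Background was set at log2 6.34, a linear signal of 80.9, the 95th percentile of 80 probe sets for olfactory and vomeronasal receptors, and lower signals were raised to it before a ratio was taken. A ratio is the siHDAC9 signal over the siControl signal, in log2, so a negative value means a lower signal on the siHDAC9 array. A gene's value is that of its brightest probe set by the mean of both arrays. The Hdac9 target itself was near background. Probe set 1434572_at read 6.88 on the siControl array and 5.69, below background, on the siHDAC9 array, lower by at least 1.46-fold. The signals of 1421306_a_at, 5.99 with the control siRNA and 5.94 with the HDAC9 siRNA, did not reach 6.34, so it gives no ratio. The lower Hdac9 signal thus rests on 1 probe set, and the extent of the knockdown was not otherwise tested.

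The promoters of Rgs2 and Rgs16 are shown because these were the R4 genes with the lowest values over several probe sets. Each is the stretch of 250 bases before the RefSeq start of the gene on GRCm38.p6, read along the gene's strand. Capitals mark matches on either strand to the letters of the CCAAT box, to GGGCGG, which is the GC box, and to TGACG, the core of a cAMP response element (CRE). The Rgs2 window is chr1:144004150-144004399 on the minus strand and the Rgs16 window is chr1:153740103-153740352 on the plus strand.
Rgs2: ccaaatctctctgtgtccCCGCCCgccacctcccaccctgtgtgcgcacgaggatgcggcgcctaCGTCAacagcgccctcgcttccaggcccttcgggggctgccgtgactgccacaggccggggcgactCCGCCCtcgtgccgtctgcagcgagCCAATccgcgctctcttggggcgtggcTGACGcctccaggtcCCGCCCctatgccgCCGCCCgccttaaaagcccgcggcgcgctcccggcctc
Rgs16: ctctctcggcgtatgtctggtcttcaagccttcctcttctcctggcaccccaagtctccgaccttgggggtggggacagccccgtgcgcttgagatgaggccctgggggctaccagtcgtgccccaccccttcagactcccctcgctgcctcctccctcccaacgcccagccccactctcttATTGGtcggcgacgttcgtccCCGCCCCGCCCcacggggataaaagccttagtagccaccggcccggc

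The Rgs2 window held 4 GC boxes, 1 CCAAT box and 2 CRE cores, and its G and C content was 72.4%. The Rgs16 window held 2 GC boxes that share 1 base, 1 CCAAT box and 0 CRE cores, with a G and C content of 66.4%. Over all 32851 promoter windows of the same length in the RefSeq table, searched on both strands, a GC box was in 32.7%, a CCAAT box in 33.8% and a CRE core in 17.8%. Neither window held the full CRE TGACGTCA (in 1.55% of windows), the AP-1 letters TGANTCA (6.75%), the STAT letters TTCNNNGAA (7.02%), an interferon-stimulated response element (2.98%), a MEF2 site (2.92%) or an NF-kappaB site (3.90%). These matches describe letters only. Of the 9 genes, 6 had an entry in the promoter table; Rgs1, Rgs14 and Rgs18 had none.

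Most of the 9 chosen RGS genes were slightly lower on the siHDAC9 array, and none came near 2-fold. All 9 were above background on both arrays. Of the 9, 8 had a ratio below 0, against 45.9% of the 12090 genes above background on at least 1 array. Their median was -0.33, a 1.26-fold lower signal, beside a median of 0.03 over all those genes. The range ran from -0.54 for Rgs16 to 0.20 for Rgs3. At least 2-fold lower were 0 of the 9 and 0.372% of all genes, and at least 2-fold higher were 0 of the 9 and 1.44% of all genes. At 1.5-fold both counts were also 0, against 2.79% of all genes lower and 7.81% higher. Because the genes were picked with this contrast known, nothing is read from these shares. In RNA from a whole culture, fewer cells of a type and less RNA per cell cannot be told apart.

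**Figure D1:**
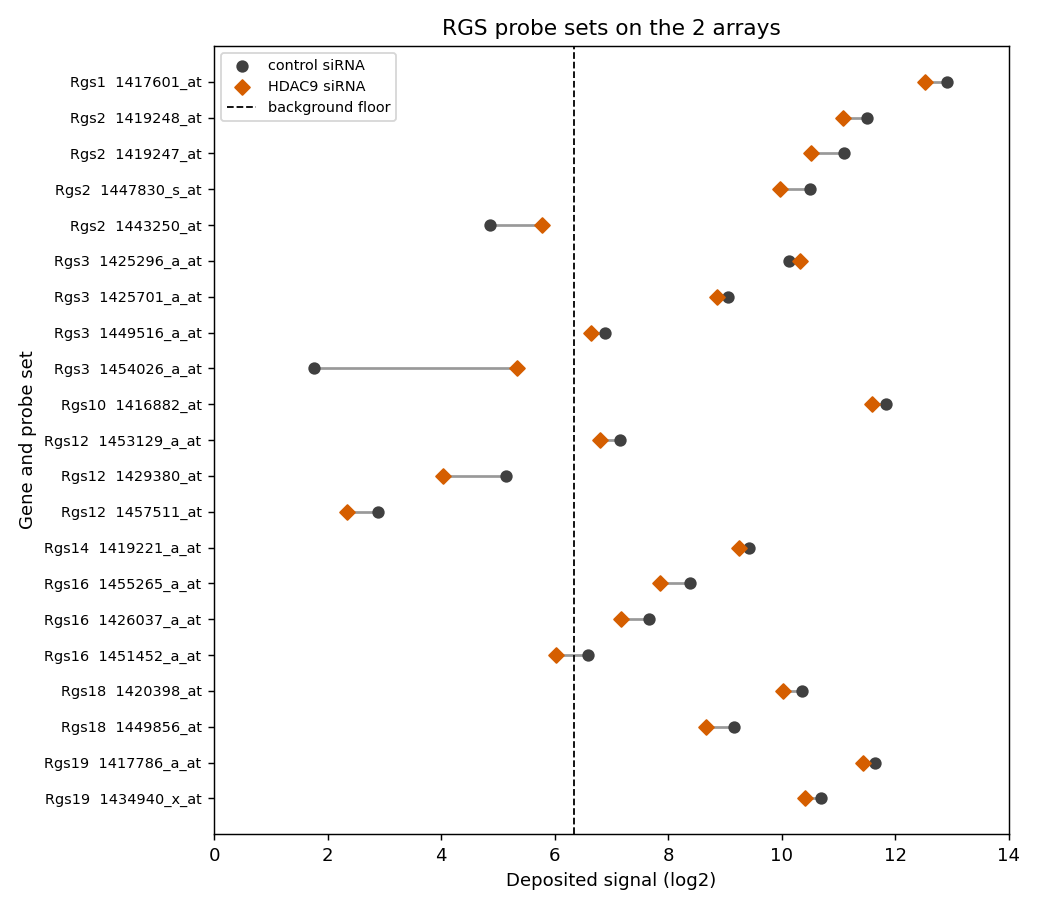
Deposited log2 signal (x axis) of all 21 probe sets of the 9 RGS genes (y axis) on the control siRNA array (circles) and the siHDAC9 array (diamonds), 1 array each, with the background floor at 6.34 as a dashed line. Of 17 probe sets that exceed the floor on 1 array or both, 16 lie lower on the siHDAC9 array, and the exception is the brightest probe set of Rgs3.

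Rgs16, which restrains G alpha i and G alpha q signalling and in mouse T cells limits migration to chemokines, had the lowest ratio. Its probe set 1455265_a_at read 8.38 on the siControl array and 7.85 on the siHDAC9 array, which is 1.45-fold lower. Its probe set 1426037_a_at read 7.66 and 7.17, a ratio of -0.49. The dimmest, 1451452_a_at, read 6.59 on the siControl array and 6.03 on the siHDAC9 array, so its ratio of -0.25 is a bound. All 3 probe sets were thus lower, by 0.49 to 0.56 on the deposited scale without the floor. A ratio as low or lower than that of the brightest was found for 3.41% of all genes above background and for 4.07% of the 3022 genes in the same quartile of mean signal.

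Rgs2, a regulator with a preference for G alpha q that many cells induce quickly after receptor stimulation, was lower by each of its 3 probe sets above background. Probe set 1419248_at read 11.50 on the siControl array and 11.07 on the siHDAC9 array, which is 1.35-fold lower. Probe set 1419247_at went from 11.10 to 10.51, a ratio of -0.59, the lowest of any RGS probe set above background on both arrays. Probe set 1447830_s_at went from 10.50 to 9.97, a ratio of -0.52. The remaining probe set, 1443250_at, was below background on both arrays (4.85 and 5.77) and gives no ratio. Among the 3023 genes in the brightest quartile of mean signal, 1.89% had a ratio as low or lower than the -0.43 of Rgs2.

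Rgs1, an inhibitor of chemokine receptor signalling that is abundant in activated lymphocytes and is also made by macrophages, had 1 probe set. It read 12.90 on the siControl array and 12.52 on the siHDAC9 array, a linear signal of 7643 against 5882, which is 1.30-fold lower. In the brightest quartile, 3.37% of genes had a ratio as low or lower than its -0.38. With no second probe set, this value could not be set against another reading of the same transcript.

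Rgs18, a regulator of blood cells best known from platelets and megakaryocytes, was lower by both of its probe sets. Probe set 1420398_at read 10.36 on the siControl array and 10.02 on the siHDAC9 array, a ratio of -0.33. Probe set 1449856_at read 9.16 and 8.67, a ratio of -0.49. Of the 3022 genes in its quartile of mean signal, 7.15% had a ratio as low or lower than the brighter probe set.

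Rgs3, the R4 gene with long protein forms that carry further domains, was the only 1 of the 9 with a ratio above 0, and its probe sets pointed in opposite directions. Probe set 1425296_a_at read 10.12 on the siControl array and 10.33 on the siHDAC9 array, which is 1.15-fold higher. Probe set 1425701_a_at read 9.04 and 8.85, a ratio of -0.19. Probe set 1449516_a_at read 6.88 and 6.63, a ratio of -0.25. The fourth, 1454026_a_at, was below background on both arrays (1.76 and 5.34). Summarised by the median over the 3 probe sets above background, Rgs3 was at -0.19, so its sign depends on which probe set stands for the gene.

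The R12 genes were each lower by a small amount. Rgs10, a small regulator that restrains inflammatory activation in mouse microglia and macrophages, read 11.83 on the siControl array and 11.59 on the siHDAC9 array, a ratio of -0.24. Rgs14 read 9.42 and 9.24, a ratio of -0.19. Rgs12 read 7.16 and 6.79 by 1453129_a_at, a ratio of -0.37, at a signal close to background; its other probe sets, 1429380_at and 1457511_at, were below background on both arrays. Since 13.8% of genes in the dimmest quartile had a ratio as low or lower than Rgs12, against 11.5% in the brightest quartile for Rgs10, the numerically lower value of Rgs12 was no further out among genes of like signal.

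Rgs19, the RZ gene, which acts on G alpha i and was first described as a partner of G alpha i3, was lower by both probe sets. Probe set 1417786_a_at read 11.65 on the siControl array and 11.42 on the siHDAC9 array, a ratio of -0.23. Probe set 1434940_x_at read 10.70 and 10.41, a ratio of -0.28. By subfamily the medians were -0.38 for the 5 R4 genes, -0.24 for the 3 R12 genes and -0.23 for the 1 RZ gene. The R4 range, from -0.54 to 0.20, took in every R12 and RZ value.

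Scatter between probe sets gives the only internal measure of error. For each of 5671 genes with more than 1 probe set above background, the ratios of the 2 brightest were subtracted; the standard deviation of these values over the square root of 2 was 0.29. It was 0.20 over the 2008 of them in the brightest quartile. It includes differences between transcript forms and leaves out differences between cultures. Of the 9 RGS genes, 5 (Rgs16, Rgs2, Rgs1, Rgs12 and Rgs18) were lower by more than 0.29, against 12.1% of all genes. The ratios of Rgs3, Rgs10, Rgs14 and Rgs19 were smaller than 0.29 in size. Rgs10 (-0.24) and Rgs19 (-0.23) are in the brightest quartile, where the scatter was 0.20 and the median of all genes was itself -0.05. After the loess fit described below they were at -0.20 and -0.19, about the size of that scatter. In that quartile 11.5% of genes had a ratio as low or lower than Rgs10, and 13.1% than Rgs19. Rgs12 is in the dimmest quartile, for which the scatter was not computed separately. Of the 5 RGS genes with several probe sets above background, 4 had all of them below 0, as did 21.5% of such genes overall. Over all named probe sets above background, 46.6% had a ratio below 0. Probe sets of 1 gene share their transcript and their RNA sample and are not replicates.

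**Figure D2:**
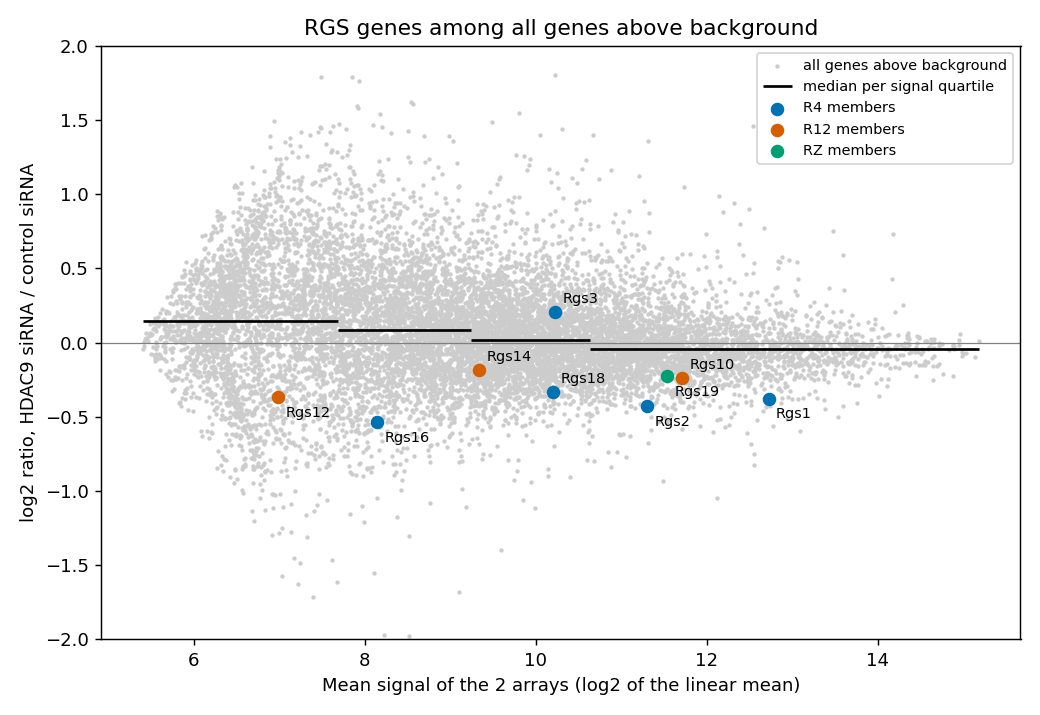
Ratio of HDAC9 siRNA to control siRNA on the log2 scale (y axis) against mean signal (x axis, log2 of the linear mean of both arrays) for genes above background, with RGS genes coloured by subfamily and black lines at the median of each quartile of mean signal. Of the 9 RGS genes, 8 lie below the median line of their quartile and Rgs3 lies above it; 3 genes with a ratio beyond 2 in size are outside the plotted range.

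Ratios drifted with signal, and the bright RGS genes sit where the drift is downward. The median ratio was 0.15 in the dimmest quartile of genes, 0.09 and 0.02 in the next quartiles and -0.05 in the brightest. Rgs1, Rgs2, Rgs10 and Rgs19 are in that brightest quartile, where 61.4% of genes had a ratio below 0. After a loess fit that removes the drift, Rgs2 was at -0.40, Rgs1 at -0.32, Rgs10 at -0.20 and Rgs19 at -0.19. The median of the 9 genes was then -0.26, beside -0.02 over all genes. Of the 9, 8 were below 0, against 53.8% of all genes. A ratio at or below the median of the 9 was found for 19.8% of all genes, against 9.78% before the fit.

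**Figure D3:**
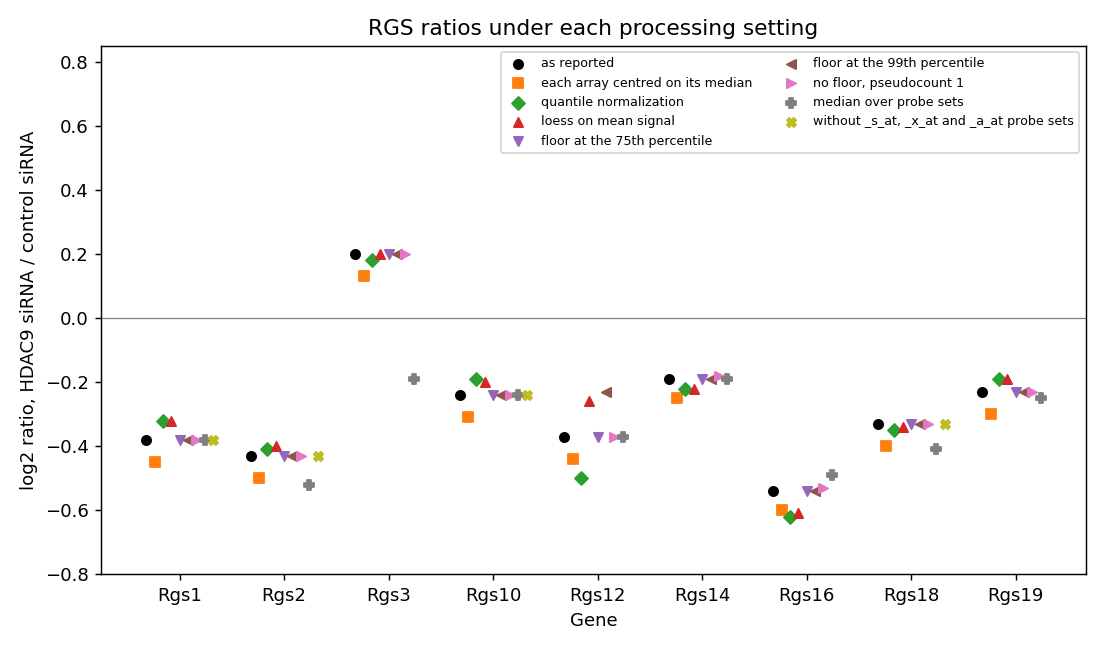
Log2 ratio (y axis) of each RGS gene (x axis) as reported (black circles) and under 8 alternative settings of scaling, background floor and probe set summary (coloured symbols). Of the genes shown, 8 stay below 0 under each setting that gives a value, and Rgs3 changes sign with the median over probe sets (-0.19).

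The other RGS genes were at or near background. Of the 12 measured genes on that list, which also holds the binding proteins Rgs7bp and Rgs9bp, 4 exceeded background on 1 array or both and all 4 had a ratio above 0, with 0 past 2-fold. Rgs9, known from photoreceptors and striatum, read 6.74 on the siControl array and 7.50 on the siHDAC9 array by 1418691_at, a ratio of 0.76. Its probe sets 1439635_at and 1426033_at were below background on both arrays. Rgs17 read 6.69 and 6.90, a ratio of 0.21. Rgs20 and Rgs11 were above background on the siHDAC9 array only, so their ratios of 0.30 and 0.14 are bounds. Rgs4, Rgs5, Rgs6, Rgs7, Rgs8 and Rgs13 had every probe set below background on both arrays. These genes lie in the dimmest quartile, where the median of all genes was also above 0.

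Genes for the G alpha partners of RGS proteins lay on both sides of 0. Of 10 G alpha genes above background, 5 were above 0 and 5 below, 0 were past 2-fold and the median was 0.02. Gna11 was at 0.44 and its second probe set at 0.47. Gnaq, which encodes the preferred substrate of Rgs2, was at -0.27 (10.92 on the siControl array and 10.65 on the siHDAC9 array), and 6 of its 7 probe sets above background were below 0, from -0.83, a bound, to 0.16. Gnai1 was at -0.34, but its 3 probe sets ran from -0.34 to 0.22, and Gnai3 was at -0.21 by its brightest probe set and at 0.22 by the other. Gnat2, a transducin of cone photoreceptors, was at -0.41 as a bound.

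The G beta and gamma genes had a median of -0.11, with 0 past 2-fold. Of the 12, 10 were below 0, against 45.9% of all genes and 61.4% of those in the brightest quartile. Gnb5, the beta subunit that pairs with RGS proteins of the R7 subfamily, was at -0.44. Gng13 was at -0.41 as a bound. Gng11 (11.41 and 11.18), Gnb4 and Gng12 followed at -0.23, -0.20 and -0.17. The other probe set of Gnb4 was at 0.30. Many of these genes are bright, in the range where the median of all genes was also below 0.

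Receptor kinases and arrestins, which uncouple receptors from G proteins, had a median of -0.01 over 6 genes with 3 above 0 and 3 below. Grk3 was at 0.35, Grk5 at -0.24, Arrb1 at -0.09, Grk6 at 0.07 and Grk4 at -0.05 as a bound. The 3 probe sets of Grk6 above background ran from -0.86 to 0.07, and the 3 of Grk3 from -0.05 to 0.35. The 5 accessory genes of the G alpha cycle had a median of 0.10. Ric8b, a chaperone of G alpha subunits, was at -0.47 and its relative Ric8a at 0.35, while the GoLoco genes Gpsm1, Gpsm2 and Gpsm3 were at -0.37, 0.19 and 0.10. The probe sets of 3 of these genes disagreed in sign, from -0.54 to 0.43 over 4 for Ric8a, from -0.47 to 0.02 over 2 for Ric8b and from -0.37 to 0.49 over 3 for Gpsm1.

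Genes for proteins that carry an RGS-homology domain within a larger architecture mostly had ratios above 0; their difference from the 9 RGS genes was not tested. Among the 8 such genes above background, 0 were past 2-fold and the median was 0.31. Of them 7 were above 0 and 1 below, against 45.9% of all genes below 0. Akap10, an anchoring protein for protein kinase A, was at 0.54 and the Wnt scaffold gene Axin1 at 0.43. The RhoGEF genes that act on G alpha 12 and 13 were at 0.39 for Arhgef1, 0.36 for Arhgef12 and 0.27 for Arhgef11. Arhgef1 read 8.95 on the siControl array and 9.34 on the siHDAC9 array, and its second probe set was at 0.15. For Akap10 the 4 probe sets ran from -0.39, a bound, to 0.54, so its direction was not shared by all of them. Likewise the 4 of Arhgef12 ran from -0.11 to 0.45, and the second probe set of Axin1 was at 0.0068.

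**Figure D4:**
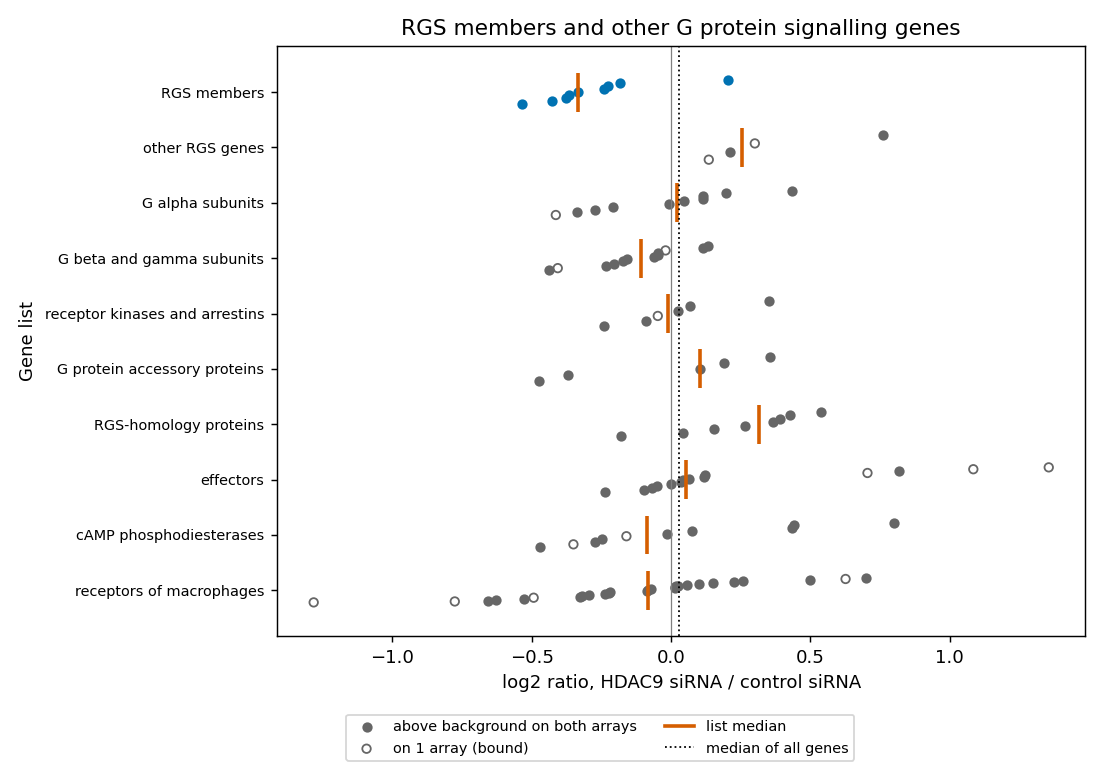
Ratio of HDAC9 siRNA to control siRNA on the log2 scale (x axis) for each gene above background. Rows (y axis) are the 9 RGS genes and the other lists of G protein signalling genes. List medians are orange bars and the median of all genes is dotted. The median of the 9 RGS genes is at -0.33 and those of the other lists lie between -0.11 and 0.31; open points are bounds.

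Effectors of G proteins held 2 of 14 genes at least 2-fold higher and 0 lower, against 1.44% and 0.372% of all genes. Both were bounds from the siControl array's background. Plcb2, a phospholipase C activated by G alpha q and by beta gamma subunits, read 5.92 on the siControl array and 7.69 on the siHDAC9 array, at least 2.56-fold higher. Adcy1, an adenylyl cyclase mainly of neurons, read 6.19 and 7.42, at least 2.12-fold higher. The other Adcy1 probe set above background had a floored ratio of only 0.24. Adcy6 was at 0.82 and Adcy2 at 0.70 as a bound, while Adcy7, an adenylyl cyclase prominent in leukocytes, was at -0.07 (12.55 and 12.49). Pik3cg, the catalytic subunit of the PI3 kinase driven by beta gamma subunits, was at -0.24 by its brightest probe set and at 0.18 by the other. The median of the 14 was 0.05.

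The 10 cAMP phosphodiesterase genes had 0 past 2-fold and a median of -0.09. Pde4a was at 0.80, Pde2a at -0.47, Pde7b at 0.44, Pde4b at 0.43 and Pde3a at -0.35 as a bound. The Pde2a probe sets disagreed, running from -0.47 to 1.21, and so did those of Pde4b, from -0.47 to 0.43.

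Among 27 receptors of macrophages above background, 15 had a ratio below 0, against 45.9% of all genes, and the median was -0.08. At least 2-fold lower was 1 and at least 2-fold higher were 0, against 0.372% and 1.44% of all genes. Gpr183, a receptor for oxysterols, read 7.62 on the siControl array and 5.85, below background, on the siHDAC9 array, at least 2.43-fold lower. S1pr3 was at -0.78 as a bound, the nucleotide receptors P2ry2 and P2ry1 were at 0.70 and -0.66, and the complement receptor gene C5ar1 was at -0.63 (10.94 and 10.31). The second probe set of C5ar1 was at -0.12.

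Markers of the labelled cell type were present on both arrays. Of 13 macrophage genes 12 were above background on each, their summed linear signal was 115860 on the siControl array and 112051 on the siHDAC9 array, and Timd4 was below background on both. Rgs genes are also expressed by lymphocytes, platelets and stromal cells, so their markers are given here. Of 11 T cell and NK cell markers, 6 were above background on the siControl array and 5 on the siHDAC9 array, with a summed signal of 16028 and 15848. Cd3d, Cd3e, Cd3g and Cd4 were below background on both. Within that list Lat (-0.77), Thy1 (-0.72), Cd28 (-0.64) and Cd8a (-0.79, a bound) were lower beside Rgs1 and Rgs16, while Il7r was at 0.04 and Prf1 at 0.07. Il7r, with log2 signals of 13.79 and 13.84, makes up most of the summed signal of that list. Of 7 megakaryocyte and platelet markers, 5 and 6 were above background, with a summed signal of 1749 and 1653. Pf4, with log2 signals of 10.17 and 9.79, makes up most of that sum. It was at -0.38 beside the -0.33 of Rgs18 and was the only 1 below 0. The other 5 with a ratio were above 0, with Itga2b at 0.09, Gp9 at 0.18, Gp1bb at 0.24, Gp5 at 0.26 and Gp6 at 0.64 as a bound. Of 8 B cell markers, 2 were above background on each array, with a summed signal of 2184 and 2497. Of 7 neutrophil markers, 4 were above background on each, with 1566 and 1707. Of 7 mast cell markers, 1 and 2 were above background, with 372 and 499. All 15 mesothelial and stromal markers were above background on both arrays, with a summed signal of 48928 and 64074. Past 2-fold in that list were the collagen genes Col1a1 (1.80) and Col3a1 (1.46), both higher, and the mesothelial gene Msln (-1.11), which was lower. The part of these other cells in the RGS values was not tested.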

How the data were processed

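Total RNA was made into biotin-labelled cRNA and hybridised to 1 array per group, per the labels. The authors deposited 1 log2 signal per probe set and array. Per the submitters' processing notes MAS5 was used; neither its version, its settings, its scaling target nor detection calls were known here. The authors' scaling was kept. Of 45037 probe sets, 34945 had 1 gene symbol in a platform annotation of 2016, several symbols were given for 932 and none for 9160. By gene identifier 34741 of the named ones matched RefSeq GRCm38.p6, and 0 symbols changed. Flooring, ratios and gene values were computed as the report describes, in Python 3.11.15 with pandas 2.3.3 and NumPy 2.4.6, and loess with statsmodels 0.14.6. The steps were tested on simulated data. With 1 array per group, no p-value or standard deviation between samples was computed; precision is limited by the number of arrays. The siControl array had 51.4% of probe sets above background and the siHDAC9 array 53.6%. Of each G protein list, up to 5 genes with the largest absolute ratios, and all genes past 2-fold, were named; second probe sets and further genes were added after their values were seen. The 9 genes and all lists were chosen with earlier results of these data known. Alternatives were 3 other scalings, a floor at the 75th or at the 99th percentile, a pseudocount of 1 in place of a floor, gene values as medians over probe sets, omission of the probe sets whose suffix is _s_at, _x_at or _a_at, and cut-offs at 1.5-fold and 3-fold.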

Additional observations from a re-analysis of the deposited data

How the results depend on the processing

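No paired analysis was possible because there was 1 array per group. Of 67 alternative values of single RGS genes, 66 moved by less than the 0.29 scatter of probe sets. The other was Rgs3, whose probe sets had a median of -0.19. That count says little about stability, because many of these values could hardly move. A changed floor leaves signals well above it as they are. The median over probe sets cannot alter the 4 genes with 1 probe set above background. Omitting suffixes kept the same probe set for each gene left. The 0.29 also exceeds the size of several RGS ratios. The median of the RGS genes ran from -0.40, with each array centred, to -0.24, at the higher floor of the 99th percentile, and 0 of them passed 2-fold under any setting. When probe sets with the suffix _s_at, _x_at or _a_at were omitted, only Rgs1, Rgs2, Rgs10 and Rgs18 were above background, so the count below 0 was 4 of 4. The same setting gave medians of -0.18 for accessory genes and 0.21 for RGS-homology proteins. The median of macrophage receptors was -0.15 with centring and -0.20 after quantile normalization. The other RGS genes were at -0.18 over 3 genes after loess, 0.49 over 6 at the lower floor of the 75th percentile and 0.58 for 1 gene at the higher floor. The cAMP phosphodiesterases had medians of 0.031 at the higher floor and 0.057 when probe sets were summarised by their median. The counts of RGS genes below 0 under each alternative were added after the data were seen. Fewer genes or probe sets enter at the higher floor and when suffixes are omitted, and more enter at the lower floor. Centring moves all signals of an array by the same amount, and with it the median of all genes went from 0.03 to -0.04. The cause of the other shifts was not tested.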

Other observations

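The genomic neighbours of the RGS genes were looked at after the data were seen. In the RefSeq order of named protein-coding genes, Rgs2, Rgs13, Rgs1, Rgs21 and Rgs18 follow each other on chromosome 1. Rgs2, Rgs1 and Rgs18 were lower at -0.43, -0.38 and -0.33, while Rgs13, which lies between Rgs2 and Rgs1, was below background on both arrays and Rgs21 was not analysed here. Next to this run of genes, beyond Rgs2, Uchl5, a deubiquitinase of the proteasome, read 11.31 on the siControl array and 10.88 on the siHDAC9 array (-0.43), and Ro60, an RNA-binding autoantigen, was at -0.23. On the other side Brinp3 was below background and Pla2g4a, the phospholipase that releases arachidonic acid, was at -0.11. Rgs16 lies elsewhere on the chromosome, next to Rgs8, which was below background on both arrays, and near Npl, which was higher at 0.51. Taking the 2 nearest such genes on each side of all 9 RGS genes, 17 that are not RGS genes were above background, 9 of them had a ratio below 0 and their median was -0.05, with a range from -1.47 to 1.26.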
